A study of Mus musculus with 8 samples.

Results

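The levels of 10 heat shock chaperone genes were followed across the cells of tumour-bearing mouse liver: Hspa1a, Hspa1b, Dnajb1, Hsph1, Hspb1, Hsp90aa1, Hspe1, Hspd1, Hspa8 and Dnaja1. They were picked out by their symbols, and all 10 of the 33696 genes listed carried UMIs (unique molecular identifiers, the counted molecules). The knockout mice were Ncr1iCre, Nr4a1fl/fl and the control mice Ncr1WT, Nr4a1fl/fl, so both groups carried floxed Nr4a1 (the gene of the nuclear receptor Nur77) and the controls lacked Cre. Ncr1 encodes NKp46 and is active in NK cells and some innate lymphoid cells, so the deletion is by design limited to cells that use Ncr1; of the types described here these are the NK-like cells. All mice were C57BL/6 males that received, at 8 to 10 weeks of age, a hydrodynamic tail vein injection of CRISPR-Cas9 plasmid with an sgRNA to Trp53, a c-Myc transposon and CMV-SB13 transposase, and the livers were taken 4 to 5 weeks later. There were 3 knockout and 3 control libraries of 3′ single-cell mRNA; knockout 3 pooled 2 mice and control 3 pooled 3 mice, told apart by hashtags. The labels number the libraries as biological replicates without saying which animals stand behind those numbered 1 and 2, so p-values measure only the spread between these libraries. Tags from the 3′ end of Nr4a1 mRNA test neither the deletion nor the labels, and no such check was made.

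Heat shock chaperones bind unfolded proteins and are switched on by the transcription factor HSF1 when proteins misfold, as in heat, oxidative stress or the handling of tissue. HSP70 proteins (Hspa1a, Hspa1b and the constitutive Hspa8) work in a cycle with J-domain partners (Dnajb1, Dnaja1) that deliver substrates and with Hsph1, a nucleotide exchange factor, while Hsp90aa1 matures kinases and receptors, Hspb1 is a small holdase, and Hspd1 with its lid Hspe1 folds proteins inside mitochondria. In liver the mitochondrial pair serves an organ rich in mitochondria, and the inducible HSP70 genes are known as markers of stress during dissociation.

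HSF1 binds heat shock elements, made of inverted GAA units, and promoters are shown for the members whose levels are described most closely below. The RefSeq table (mouse build GRCm38.p6, 250 bases before to 50 bases after each start site) held promoters for 8 of the 10 members, and Hsp90aa1 and Hspa8 had no entry. Capitals mark matches to the 2-unit motifs GAANNTTC and TTCNNGAA, each of which is its own reverse complement; a 3-unit match adds a further unit in the opposite direction at the same spacing and so overlaps them. Sequences run 5′ to 3′ on the strand of the gene. Hspa1a is chr17:34972107-34972406 and Hspa1b chr17:34959189-34959488, both on the minus strand; Hsph1 is chr5:149636287-149636586 on the minus strand, Hspb1 chr5:135887669-135887968 on the plus strand, and Hspe1 chr1:55087898-55088197 on the plus strand.
Hspa1a: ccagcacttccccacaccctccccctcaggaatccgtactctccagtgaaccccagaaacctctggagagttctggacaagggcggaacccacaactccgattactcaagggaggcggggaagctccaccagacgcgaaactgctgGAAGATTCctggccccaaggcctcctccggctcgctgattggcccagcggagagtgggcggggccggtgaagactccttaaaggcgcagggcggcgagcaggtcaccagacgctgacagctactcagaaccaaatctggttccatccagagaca
Hspa1b: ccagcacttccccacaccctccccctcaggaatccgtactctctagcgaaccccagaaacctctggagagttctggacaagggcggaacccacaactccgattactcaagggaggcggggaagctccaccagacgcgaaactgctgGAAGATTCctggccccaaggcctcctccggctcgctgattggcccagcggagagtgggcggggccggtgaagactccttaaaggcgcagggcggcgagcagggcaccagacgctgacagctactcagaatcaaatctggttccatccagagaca
Hsph1: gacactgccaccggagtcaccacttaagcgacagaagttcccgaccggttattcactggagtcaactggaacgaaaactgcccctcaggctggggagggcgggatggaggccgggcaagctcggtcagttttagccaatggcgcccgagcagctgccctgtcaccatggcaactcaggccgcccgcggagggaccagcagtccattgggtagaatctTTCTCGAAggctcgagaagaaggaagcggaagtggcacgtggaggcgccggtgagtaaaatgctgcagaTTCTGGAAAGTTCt
Hspb1: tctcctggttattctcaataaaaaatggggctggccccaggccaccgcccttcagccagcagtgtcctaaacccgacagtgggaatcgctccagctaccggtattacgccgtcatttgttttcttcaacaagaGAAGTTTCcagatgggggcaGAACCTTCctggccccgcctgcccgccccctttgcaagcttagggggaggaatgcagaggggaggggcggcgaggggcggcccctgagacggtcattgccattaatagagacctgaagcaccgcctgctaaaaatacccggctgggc
Hspe1: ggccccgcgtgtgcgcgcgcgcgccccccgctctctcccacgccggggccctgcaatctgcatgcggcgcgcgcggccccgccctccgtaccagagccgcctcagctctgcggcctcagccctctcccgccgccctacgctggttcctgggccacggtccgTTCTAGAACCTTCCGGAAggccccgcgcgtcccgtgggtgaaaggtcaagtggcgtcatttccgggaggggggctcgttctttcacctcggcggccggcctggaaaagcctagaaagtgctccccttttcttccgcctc

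The Hspa1a and Hspa1b promoters were the same at 296 of 300 bases, and each held 1 match, 104 bases before the start site. These neighbouring genes are near-identical copies, so reads may have been split between them and the level of either alone is uncertain. Hspb1 held 2 matches that began 117 and 97 bases before its start, and Hsph1 held 3, with 1 three-unit match. Hspe1 held 3 overlapping matches, and the same stretch lies in the second Hspd1 promoter on the opposite strand. At least 1 two-unit match was found for 7 of the 8 members, Dnajb1 being without one, against 17.0% of 27025 genes with a promoter; three-unit matches were found for 3 of 8 members, Hsph1, Hspe1 and Hspd1, against 0.662% of genes. Matches describe letters in these windows and not binding.

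The kept cells numbered 2777, 134 and 5074 in knockout 1, 2 and 3, and 2697, 549 and 9976 in control 1, 2 and 3, with 887170 to 93016265 UMIs per library. The libraries numbered 2 stood apart: among barcodes with at least 500 UMIs and 300 genes, the median mitochondrial share was 31.2% in knockout 2 and 18.9% in control 2, against 3.0% to 6.4% in the other 4. Between 0 and 15 kept barcodes were shared by any pair of libraries. Levels are given as CPM, the UMIs of a gene per 1000000 UMIs of the cell type in that library. Cells were called by UMIs of marker genes into NK-like, monocyte-like, neutrophil-like, endothelial-like and hepatocyte-like cells, with 11 or more cells in each of the 6 libraries, and T-like and B-like cells, for which knockout 2 held only 6 and 2 cells and was left out. No defining marker list of a class was fully absent from its cells: the 8 NK markers summed to 3623 to 4467 CPM in NK-like cells, and the 11 hepatocyte markers to 5802 to 9967 in hepatocyte-like cells, against 32.1 to 1240 in the other 6 types. Because markers named the classes and tumour cells were not told from normal liver cells, hepatocyte-like covers both. Limits given for a 0 cover counting error only, while intervals of a log2 difference come from the fit over libraries. Those intervals take a normal distribution and so are too narrow for so few libraries.

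By their means over libraries, the inducible HSP70 genes were highest in monocyte-like cells and lowest in hepatocyte-like cells. Hspa1a in monocyte-like cells was at 3404, 30.0 and 2310 CPM in knockout 1, 2 and 3, and at 1806, 86.3 and 1842 CPM in control 1, 2 and 3. The other 4 libraries were thus far above the libraries numbered 2, whose values rest on 2 UMIs in knockout 2 and 3 UMIs in control 2. In hepatocyte-like cells the same gene was at 47.3, 4.08 and 21.9 CPM in knockout 1, 2 and 3, and at 43.4, 0 and 58.4 CPM in control 1, 2 and 3; the 0 in control 2 allows up to 6.73 CPM.

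In all 6 libraries Hspa1a was higher in monocyte-like than in hepatocyte-like cells. Against NK-like cells, and likewise against endothelial-like cells, it was higher in monocyte-like cells in only 4 of 6 libraries. The exceptions were both libraries numbered 2. The means over libraries ran from 1579.9 ± 1313 CPM in monocyte-like cells (SD, n = 6) through 714 ± 518 in B-like and 597 ± 249.6 in T-like cells (n = 5 each) to 523 ± 315 in endothelial-like, 321 ± 160.2 in NK-like and 297 ± 337 in neutrophil-like cells (n = 6 each). The SDs of all these neighbours in the order overlap. Hepatocyte-like cells came last, at 29.2 ± 24.2 CPM (n = 6), and were below NK-like cells in 6 of 6 libraries. Hspa1b followed the same order of 7 types, with 959 ± 792 CPM in monocyte-like and 32.5 ± 18.6 CPM in hepatocyte-like cells (n = 6 each). In monocyte-like cells it was at 2093, 74.9 and 1258 CPM in knockout 1, 2 and 3, and at 1006, 28.8 and 1294 CPM in control 1, 2 and 3, again with both libraries numbered 2 far below the rest.

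**Figure D1:**
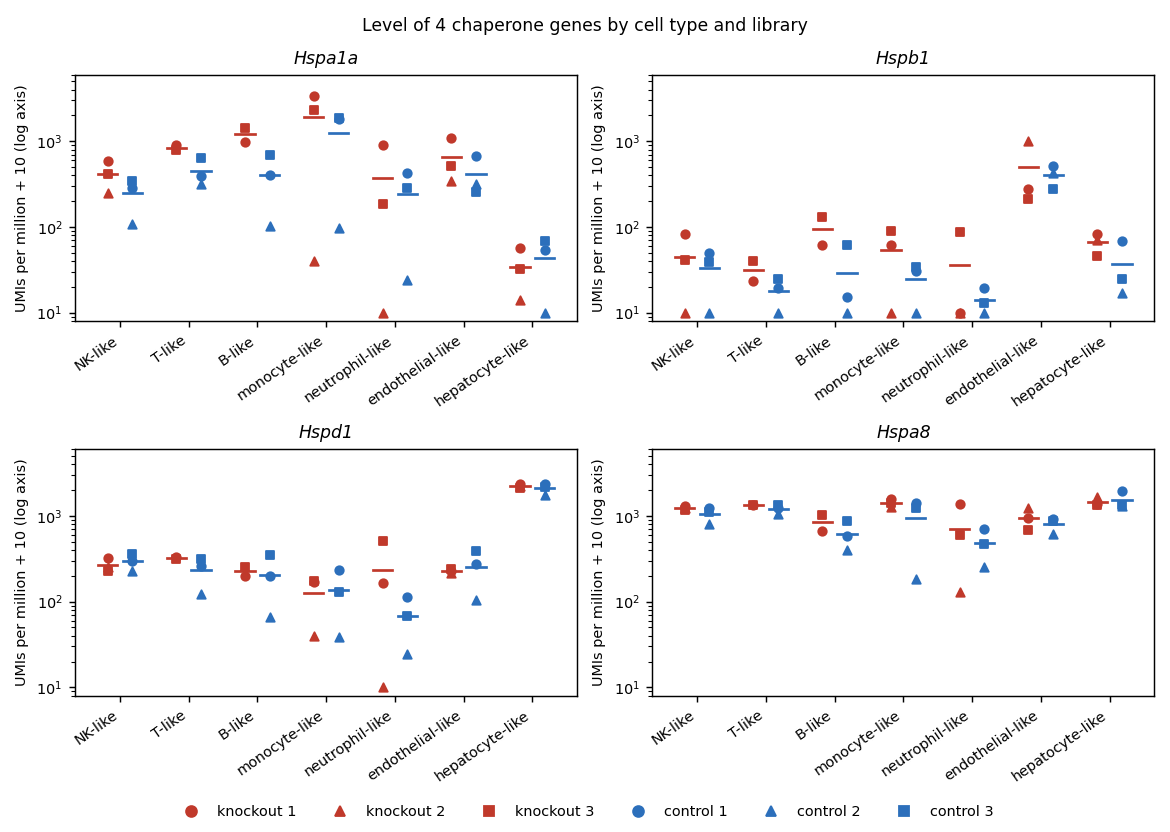
Levels of Hspa1a, Hspb1, Hspd1 and Hspa8 in 7 cell types on a log axis of CPM plus 10, with 1 point per library and a line at the mean. Hspa1a is lowest in hepatocyte-like cells, where Hspd1 is highest, Hspb1 is highest in endothelial-like cells, and Hspa8 lies in a narrow band.

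The share of cells with an Hspa1a UMI was read with depth in mind, because a hepatocyte-like cell held many more UMIs. In monocyte-like cells of knockout 1, with a median of 3056 UMIs, 80.8% had at least 1; hepatocyte-like cells of the same library, with a median of 95005 UMIs, reached 51.4%. After each cell was thinned to 1000 UMIs, leaving out shallower cells (13 and 0), these shares were 68.6% and 2.08%. In control 3 the thinned shares were 56.5% in monocyte-like and 9.95% in hepatocyte-like cells, after 73.6% and 50.1% unthinned at medians of 3537 and 28580 UMIs, with 7 and 35 cells left out. Only 2 of 19 and 2 of 21 monocyte-like cells had a UMI in the libraries numbered 2, as 10.5% in knockout 2 and 9.52% in control 2. These shares rest on 2 and 3 Hspa1a UMIs in all, at medians of 2476 and 1449 UMIs per cell. Free RNA can also give a cell a UMI. In barcodes with at most 100 UMIs, Hspa1a was at 378 CPM in knockout 3 and 509 CPM in control 3. Both values lie above the hepatocyte-like level of the same library, and only these libraries list such barcodes. The part of free RNA in the shares of cells with a UMI was not tested. UMIs were uneven between cells: in neutrophil-like cells of knockout 1, 1 cell of 62 held 49.8% of the 271 Hspa1a UMIs.

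Dnajb1, the J-domain partner of the inducible HSP70s, was lowest in hepatocyte-like cells. There it was at 30.6, 46.9 and 18.2 CPM in knockout 1, 2 and 3, and at 30.9, 17.9 and 29.9 CPM in control 1, 2 and 3. T-like cells held 420 ± 69.5 CPM in the knockout libraries (SD, n = 2) and 246 ± 98.9 CPM in the control libraries (n = 3), and each of the 5 libraries was higher in T-like than in hepatocyte-like cells. Hsph1, the exchange factor, was flatter, from 61.9 ± 64.7 CPM in neutrophil-like (SD, n = 6) to 272 ± 105 CPM in T-like cells (n = 5). In monocyte-like cells it was at 368, 0 and 209 CPM in knockout 1, 2 and 3, and at 112, 28.8 and 132 CPM in control 1, 2 and 3. Knockout 1 and 3 were above every control library there and knockout 2 below each, its 0 allowing up to 44.9 CPM.

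Hspb1, the small chaperone tied to actin filaments, was highest in endothelial-like cells on the library sums, though with most of its UMIs in few cells. Endothelial-like cells had 267, 1009 and 199.7 CPM in knockout 1, 2 and 3, and 503, 417 and 267 CPM in control 1, 2 and 3. On these sums, every library was higher there than in its NK-like, monocyte-like, neutrophil-like and hepatocyte-like cells. The 1009 CPM of knockout 2 came from 54 UMIs, of which 1 of its 11 cells held 52. Without that cell the level was 58.3 CPM, no longer above the hepatocyte-like level of that library. In control 3 most of the endothelial-like UMIs came from 1 mouse, as given below. In control 1, 1 of 237 endothelial-like cells held 47.6% of the Hspb1 UMIs. The gene was at 0 in the NK-like and monocyte-like cells of knockout 2 and of control 2.

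The mitochondrial pair was highest in hepatocyte-like cells. Hspd1, the HSP60 barrel, was there at 2376, 2193 and 2117 CPM in knockout 1, 2 and 3. In control 1, 2 and 3 it was at 2366, 1754 and 2138 CPM, a spread that the groups shared. In knockout 2, 591 of the 1076 Hspd1 UMIs were in 1 of 12 hepatocyte-like cells, and without that cell the level was 1686 CPM. NK-like cells had 312, 244 and 219 CPM in knockout 1, 2 and 3, against 288, 217 and 345 CPM in control 1, 2 and 3. Hspe1, the HSP10 lid, was at 2126 ± 306 CPM in hepatocyte-like cells of the knockout libraries (SD, n = 3). Those of the control libraries had 2119.6 ± 456 CPM (n = 3). The same single cell of knockout 2 held 378 of the 870 Hspe1 UMIs there.

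Hsp90aa1, the inducible cytosolic HSP90, was also highest in hepatocyte-like cells, at 1701, 1671 and 1270 CPM in knockout 1, 2 and 3, and at 1789, 1200 and 1252 CPM in control 1, 2 and 3. All 6 libraries were higher there than in their NK-like cells, where the level lay between 472 and 816 CPM. In knockout 2, 487 of the 820 hepatocyte-like UMIs were in 1 of 12 cells, and without that cell the level was 1158 CPM. Hspa8, the constitutive HSP70, varied least among types of the HSP70 genes, from 578 ± 437 CPM in neutrophil-like to 1487 ± 252 CPM in hepatocyte-like cells (SD, n = 6 each). In monocyte-like cells Hspa8 was at 1572, 1273 and 1390 CPM in knockout 1, 2 and 3, and at 1391, 172 and 1230 CPM in control 1, 2 and 3, where only control 2 stood apart; in knockout 2, 47 of its 85 UMIs were in 1 of 19 cells. Dnaja1, its J-domain partner, had means between 266 ± 48.5 CPM in hepatocyte-like cells (n = 6) and 434 ± 94.4 CPM in T-like cells (n = 5).

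The difference between types was tested with edgeR's quasi-likelihood test on the 30 sums of 5 types in 6 libraries, with library as a block and Benjamini-Hochberg adjustment over 9645 genes. Of the 10 members, 8 passed an adjusted p of 0.05, against 94.7% of all genes tested, so passing is the rule in this comparison and sets the members apart in no way. Against NK-like cells, Hspd1 was higher in hepatocyte-like cells by 3.27 on the log2 scale (adjusted p over types 1.78e-13) and Hspe1 by 2.29 (adjusted p = 1.87e-13). Hspa1a was 1.94 higher in monocyte-like and fell by 3.31 in hepatocyte-like cells (adjusted p = 1.29e-08). Hspa1b was 1.45 higher in monocyte-like and fell by 3.03 in hepatocyte-like cells. For both genes, monocyte-like cells were above NK-like cells in only 4 of 6 libraries. Hspb1 was 3.53 higher in endothelial-like cells (adjusted p = 2.76e-08). The 2 members that missed were Hsph1 (adjusted p = 0.0587), which passed in 4 of 9 alternatives, and Dnaja1 (adjusted p = 0.575), which passed only without both libraries numbered 2 (adjusted p = 0.0078).

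Levels followed the library as well as the type. Over the 50 pairs of a member and a type found in all 6 libraries, knockout 1 was highest in 23 and control 1 in 12, followed by knockout 2 in 6, knockout 3 in 5, control 3 in 4 and control 2 in 0. Control 2 was lowest in 34 pairs and knockout 2 in 13. The 2 libraries with the lowest levels were therefore those with the fewest cells and the highest mitochondrial shares, and within the 5 types the mitochondrial share of the summed UMIs was 6.64% to 10.7% in knockout 2 and 5.40% to 12.1% in control 2, against 1.85% to 8.01% in the other libraries; the part of cell quality in these levels was not tested. Summed over the members, monocyte-like cells had 9915, 1858 and 7438 CPM in knockout 1, 2 and 3, and 6099, 776 and 5977 CPM in control 1, 2 and 3. Hepatocyte-like cells were tighter, with 8339, 7781 and 7470 CPM in knockout 1, 2 and 3, and 9189, 6188 and 7559 CPM in control 1, 2 and 3.

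**Figure D2:**
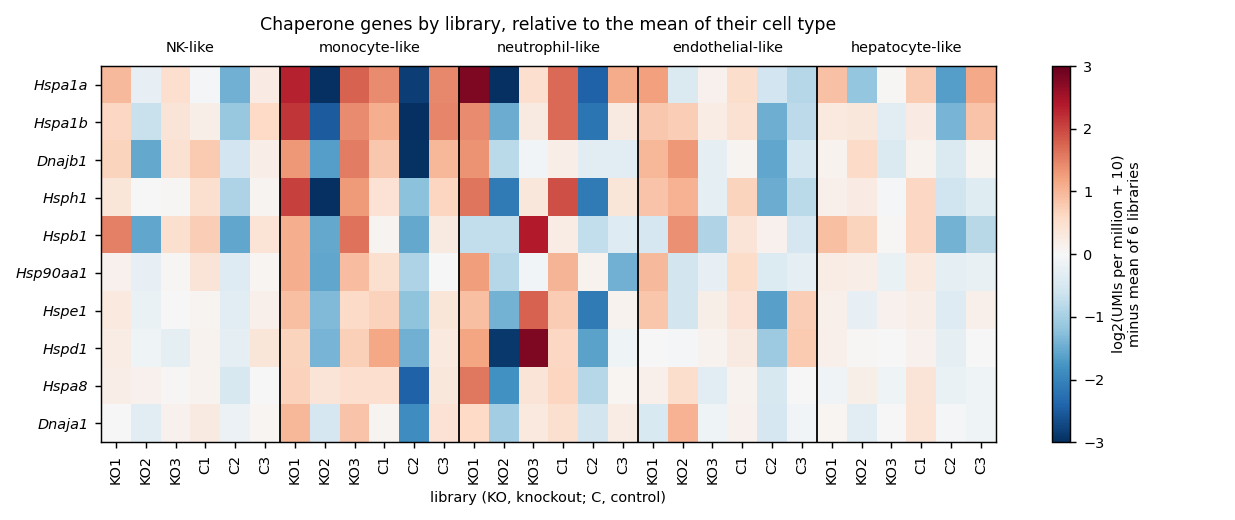
Level of each of the 10 genes in 5 cell types and 6 libraries, as log2(CPM + 10) minus the mean of that gene in that type. Knockout 1 is the highest library in 23 of 50 pairs of gene and type, and control 2 the lowest in 34.

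Of the squared deviations of log2(CPM + 10) of Hspa1a, 47.6% lay between types, 35.2% between libraries and 17.2% in neither. The share between libraries was 31.2% for Hspa1b, 32.1% for Hsph1, 32.3% for Hsp90aa1 and 29.7% for Dnaja1, and lower for the mitochondrial pair, 17.5% for Hspe1 and 11.3% for Hspd1. Hspb1 had the smallest library share, 9.89%. These are shares of all squared deviations, so a large difference between types leaves less for libraries. Of the deviations within types, 66.4% lay between libraries for Hspe1, beside 67.2% for Hspa1a. That share was 44.3% for Hspd1, 33.2% for Hspb1 and 32.5% for Dnaja1. Most of the library share of Hspa1a in all squared deviations came with the libraries numbered 2: without both it was 5.34%, with 89.9% between types. Of its deviations within types, 52.6% then still lay between libraries. Of all squared deviations, Hsp90aa1 kept 34.4% and Hsph1 27.6% between libraries without those numbered 2. Without hepatocyte-like cells the library share of Hspa1a was 53.7% and that of Hspd1 35.1%.

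Among the 4 other libraries, knockout 1 was highest in 26 of the 50 pairs and control 1 in 15, against 5 for knockout 3 and 4 for control 3. One or the other library numbered 1 thus led in most pairs. Hspa1a in NK-like, T-like and monocyte-like cells ran from knockout 1 through knockout 3 and control 3 to control 1, whereas in neutrophil-like and endothelial-like cells control 1 came next after knockout 1. In B-like cells knockout 3 was the highest of all, at 1430 CPM. In hepatocyte-like cells control 3 was, at 58.4 CPM. A single library did not therefore lead in all types. The libraries numbered 1 and 3 also differed in the Cell Ranger version and in hashtag pooling, which cannot be told apart from the library number.

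Whether the knockout and control libraries differed was asked within each type. No member passed an adjusted p of 0.05 in NK-like cells, the type in which the deletion is designed to occur, where 1 of 6760 genes did (0.0148%). An estimate above 0 was found for 7 of the 10 members, beside 50.5% of all genes tested. The median was 0.12 on the log2 scale against 0.00 for all genes. An unadjusted p under 0.05 was found for 0 members and 2.00% of genes. Members moved together over libraries, so such counts, here and in the other types, are not of independent genes. Hspa1a was at 571, 237 and 407 CPM in knockout 1, 2 and 3, and at 277, 98.8 and 337 CPM in control 1, 2 and 3. Each knockout library was above the control library of the same number, but the groups overlapped, and the 237 CPM of knockout 2 was 33 UMIs, 27 of them in 1 of 33 cells. The difference was 0.77 on the log2 scale (SE 0.38, 95% interval by the normal distribution 0.02 to 1.53). The edgeR test gave an unadjusted p of 0.063 and an adjusted p of 0.999. The interval is thus too narrow, and its lower end above 0 is no call. The other members lay between -0.14 and 0.71.

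Monocyte-like cells had 9 of 10 estimates above 0, beside 50.2% of all genes, and a median of 0.49 on the log2 scale. Of 8263 genes, 0 passed (0.0%). Of the members, Hspb1 alone had an unadjusted p under 0.05, beside 1.97% of all genes. Its log2 difference was 1.30 (SE 0.50, edgeR unadjusted p = 0.022). It was at 51.4, 0 and 78.7 CPM in knockout 1, 2 and 3 and at 20.2, 0 and 24.5 CPM in control 1, 2 and 3. Single cells carried much of it: 56.2% of the 73 UMIs in knockout 3 and 74.0% of the 50 UMIs in control 3 were in 1 cell each. The Hspa1a difference was 0.52 (SE 1.21), and it changed sign without knockout 1, at -0.17, and without control 2, at -0.01.

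Neutrophil-like cells had 7 of 9 estimates above 0, beside 46.0% of all genes, with a median of 0.54 on the log2 scale. Hspb1 was too low to be tested, and 0 of 3135 genes passed (0.0%). An unadjusted p under 0.05 was found for 1 member and 1.72% of genes. Hspd1 had an unadjusted p of 0.048 (log2 difference 1.89, SE 0.85), with 157, 0 and 506 CPM in knockout 1, 2 and 3 and 104, 14.3 and 57.7 CPM in control 1, 2 and 3. Knockout 3 stood alone there: 347 UMIs, 142 of them in 1 of 238 cells, while cells that hashtags gave to its 2 mice were at 75.4 and 82.2 CPM. Hspa1a in neutrophil-like cells had a log2 difference of 0.62 (SE 1.02), and without knockout 1 it was -1.15.

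Endothelial-like cells had 9 of 10 estimates above 0, beside 45.1% of all genes, with a median of 0.24, and 0 of 7483 genes passed (0.0%). An unadjusted p under 0.05 was found for 1 member and 1.00% of genes. Dnajb1 was at 301, 374 and 116 CPM in knockout 1, 2 and 3, and at 154, 42.7 and 97.2 CPM in control 1, 2 and 3, a log2 difference of 1.25 (SE 0.50; unadjusted p = 0.029). All 20 Dnajb1 UMIs of knockout 2 were in 1 of its 11 cells. The same cell held 18 of 18 Hspa1a UMIs, 27 of 27 Hspa1b UMIs, 24 of 25 Hsph1 UMIs and 52 of 54 Hspb1 UMIs. It also held 14 of 18 Hsp90aa1 UMIs, 8 of 11 Hspd1 UMIs and 20 of 36 Dnaja1 UMIs. For all these members the endothelial-like value of knockout 2 was mainly that of 1 cell. Of Hspa8 that cell held 24 of 65 UMIs, and of Hspe1 4 of 12. Hspa8 was at 1194 CPM without the cell and 1214 CPM with it.

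Hepatocyte-like cells, the largest source of UMIs, had 5 estimates above and 5 below 0, beside 47.7% of all genes above 0. The median was 0.00 on the log2 scale, and 0 of 13746 genes passed the threshold (0.0%). Among the abundant members, Hspd1 differed by 0.10 (95% interval by the normal distribution -0.25 to 0.46) and Hspe1 by 0.02 (-0.42 to 0.45). Hsp90aa1 differed by 0.14 (-0.25 to 0.53) and Hspa8 by -0.05 (-0.45 to 0.36). These intervals are too narrow for so few libraries. No member had an unadjusted p under 0.05. Over all kept cells together, 10 of 10 estimates lay above 0, beside 48.8% of all genes, with a median of 0.21. No member had an unadjusted p under 0.05 in these sums, and 0 of 17738 genes passed (0.0%). Those sums mix types: hepatocyte-like cells were 5.19%, 8.96% and 14.6% of kept cells in knockout 1, 2 and 3, and 19.3%, 7.83% and 6.80% in control 1, 2 and 3, and their part in the sums was not tested.

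**Figure D3:**
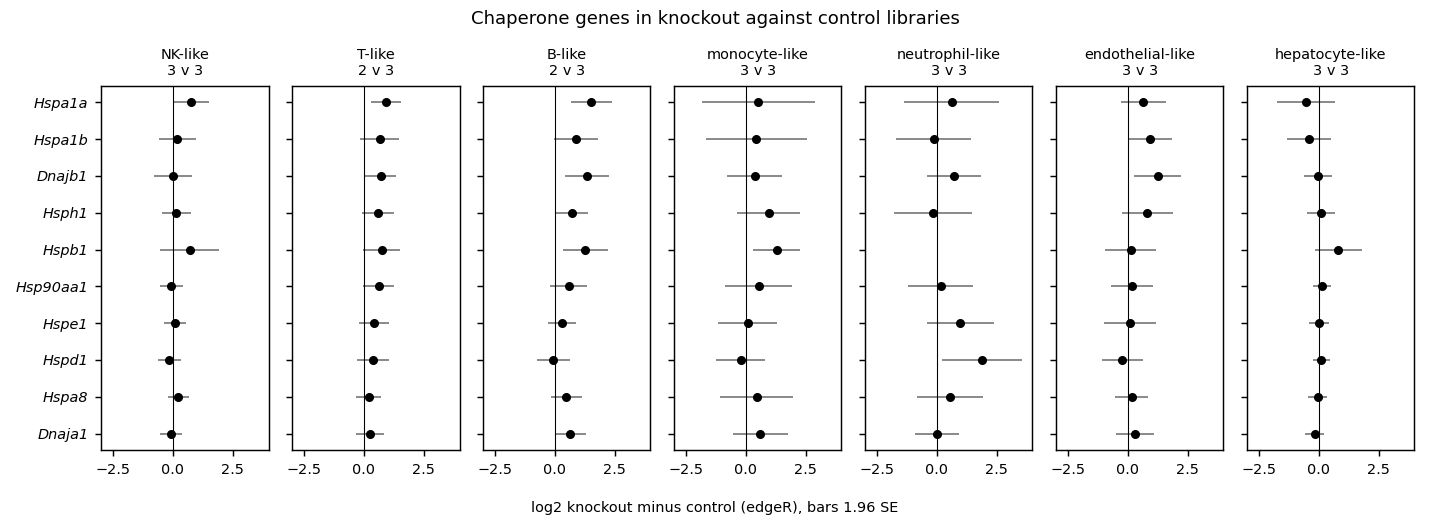
Log2 difference of knockout minus control libraries for each gene in 7 cell types, with a line at 0. Bars are 95% intervals that take a normal distribution and are too narrow for so few libraries. No gene passed an adjusted p of 0.05, and most points lie right of 0 in each type except hepatocyte-like cells, where they sit evenly on both sides of 0.

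In T-like and B-like cells knockout 2 could not be used, while control 2, with 29 and 26 cells, stayed among the controls. In T-like cells all 10 estimates were above 0, beside 52.3% of all genes. Their median was 0.62 on the log2 scale, against 0.01 over all genes. Of the 11713 genes tested, 0 passed (0.0%), and 3.11% had an unadjusted p under 0.05. Hspa1a was at 890 and 777 CPM in knockout 1 and 3, and at 383, 307 and 627 CPM in control 1, 2 and 3. The groups did not overlap, and the difference was 0.93 (SE 0.33; unadjusted p = 0.015, the only member under 0.05). Without control 2 the 10 estimates stayed above 0, but the median was 0.35 and the Hspa1a difference 0.70; with the replicate block the median was also 0.35, and no member passed.

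B-like cells held the largest Hspa1a difference of the 7 types. The gene was at 975 and 1430 CPM in knockout 1 and 3, and at 391, 92.9 and 681 CPM in control 1, 2 and 3, without overlap, for a log2 difference of 1.53 (SE 0.44; unadjusted p = 0.0032; adjusted p = 0.785). Dnajb1 was at 301 and 593 CPM in knockout 1 and 3, and at 87.9, 18.6 and 314 CPM in control 1, 2 and 3, so control 3 lay above knockout 1 (log2 difference 1.34, SE 0.47; unadjusted p = 0.012). Hspb1 was at 51.2 and 119 CPM in knockout 1 and 3, and at 5.17, 0 and 51.8 CPM in control 1, 2 and 3 (log2 difference 1.27, SE 0.48; unadjusted p = 0.016). Hsph1 was the other member under 0.05, with a log2 difference of 0.74 (SE 0.34, edgeR unadjusted p = 0.047). In all, 4 of 10 members were under 0.05, beside 2.80% of all genes. Estimates above 0 were found for 9 of 10 members, beside 51.9% of all genes. With edgeR 0 of 10107 genes passed (0.0%), and DESeq2's Wald test also called 0 members here and in each other type.

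This B-like count turned on the fit. A block by replicate number rests here on only 2 pairs of libraries, so it measures little of the spread between them. In B-like cells the deviations of pair 1 had r = 0.25 and those of pair 3 r = 0.60. Of the 2 knockout libraries, 1 correlated best with the control library of its own number. With the replicate number as a block, which leaves control 2 without a partner and compares knockout 1 and 3 with control 1 and 3, 3 members passed, Hspa1a (log2 difference 1.20, adjusted p = 0.00023), Dnajb1 (1.22, adjusted p = 0.0012) and Hspb1 (1.44, adjusted p = 0.0043), among 48 of 10107 genes (0.475%). Without knockout 1 the same 3 members passed, among 28 of 9936 genes (0.282%), with the remaining knockout library assumed to vary like the controls. Without control 3, Hspb1 and Dnajb1 passed among 4 of 8694 genes (0.046%). In the other alternatives no member was called in B-like cells. By the design, the deletion is not made in B cells.

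The 95% interval of Hspa1a in NK-like cells, though too narrow, still reached 1.53 on the log2 scale. It thus holds a difference as large as the one estimated in B-like cells. Whether the knockout difference varied between types was tested as an interaction over the 30 sums of NK-like, monocyte-like, neutrophil-like, endothelial-like and hepatocyte-like cells. T-like and B-like cells were not among these sums, so the difference between NK-like and B-like cells was not tested. In the interaction test with edgeR 0 of 9645 genes passed (0.0%), and no member had an unadjusted p under 0.05.

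The libraries were also compared by matching number. Of the 10 members, the knockout library was higher for 6, 7 and 5 in NK-like cells in pairs 1, 2 and 3. In monocyte-like cells the counts were 9, 5 and 9, and in neutrophil-like cells 7, 2 and 7. Endothelial-like cells had 7, 9 and 5, and hepatocyte-like cells 4, 9 and 4. In T-like cells pairs 1 and 3 gave 10 and 8, and in B-like cells 9 and 8. Some members were equal in pair 2, where the knockout library was lower for 2 in NK-like, 4 in monocyte-like and 6 in neutrophil-like cells. Shares over all genes were not computed for these pairs, so the counts of members only describe.

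The pooled libraries show how far mice of 1 library lie from each other. In knockout 3 the B-like cells of mouse 1 and mouse 2 had 743 and 1992 CPM of Hspa1a, and the monocyte-like cells 1912 and 4485 CPM. T-like cells had 556 and 1107 CPM in the same mice. In control 3, mouse 1, 2 and 3 had 661, 819 and 469.7 CPM in B-like cells, 1727, 2299 and 1921 CPM in monocyte-like cells, and 594, 729 and 456 CPM in T-like cells. Mouse 2 of knockout 3 was thus above each control mouse in these 3 types, whereas mouse 1 of knockout 3 lay within the range of the control mice in all 3. In NK-like cells mouse 1 and mouse 2 of knockout 3 had 381 and 539 CPM, against 243, 428 and 335 CPM in mouse 1, 2 and 3 of control 3.

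**Figure D4:**
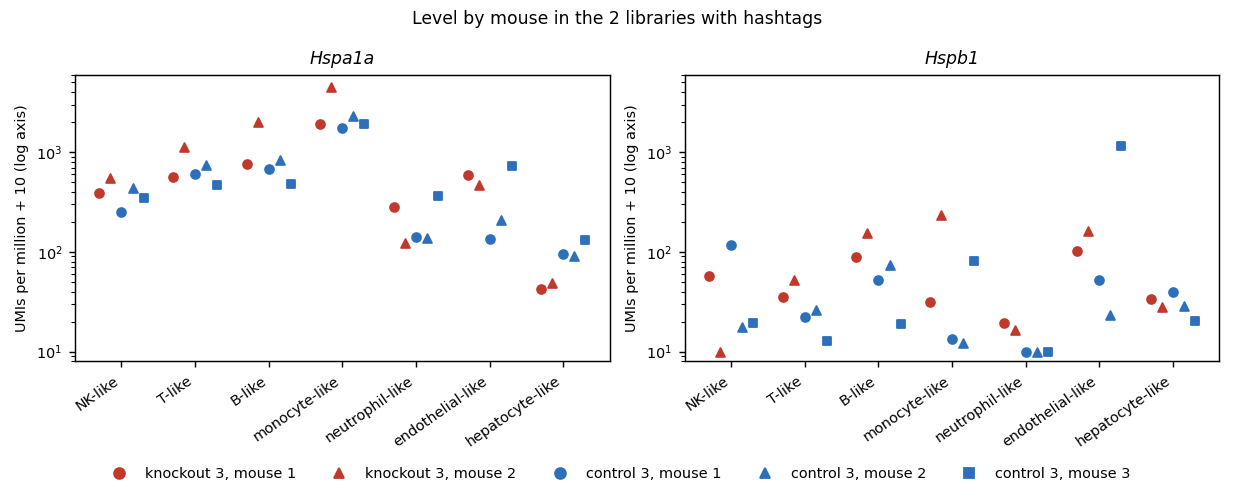
Hspa1a and Hspb1 levels per mouse of the hashtag-pooled libraries, 2 mice of knockout 3 and 3 of control 3, by cell type on a log axis of CPM plus 10. Mouse 2 of knockout 3 has the highest Hspa1a in B-like cells (1992 CPM) and monocyte-like cells (4485 CPM), and mouse 3 of control 3 the highest endothelial-like Hspb1 (1151 CPM).

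Mouse 2 of knockout 3 was the higher of its pair in 5 of 7 types for Hspa1a, Dnajb1, Hsph1 and Dnaja1, and in 1 of 7 for Hspe1. Hspb1 in endothelial-like cells was at 91.1 and 153 CPM in the 2 mice of knockout 3, and at 42.2, 13.2 and 1151 CPM in the 3 mice of control 3, so mouse 3 supplied 553 of the 724 UMIs of that library from 56 cells. Hashtags named 58 and 127 of the 743 hepatocyte-like cells of knockout 3, so per-mouse values are mainly of immune cells.

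Members moved together over the 30 sums, once each type was centred on its mean log2 level. Pearson's r was 0.90 between Hspe1 and Hspd1, 0.89 between Hspa1a and Hspa1b, 0.89 between Hspa1a and Hsph1, and 0.84 between Hspa8 and Dnaja1. The sums of 1 library share its depth and handling, and Hspa1a and Hspa1b may share reads, so these values only describe. Among 3742 genes with a mean of at least 50 CPM, those most like the summed members were Sec61b (r = 0.91), Lsm6 (0.90), Selenoh (0.90), Rpl5 (0.90) and Rnaseh2c (0.90). That likeness rested on the libraries numbered 2: over the 20 sums without them, these genes ranked 880, 582, 651, 1083 and 662 of 3685, and Rreb1 (0.91), H2ac20 (0.91), Gsk3b (0.89), Plekhg1 (0.89) and Fip1l1 (0.89) came first.

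Other stress gene lists were taken as wholes. They held 20 further HSF1-response genes, 14 chaperones of the endoplasmic reticulum, 8 subunits of the TRiC chaperonin, 7 mitochondrial chaperones and 12 early response genes. Of those with enough counts to be tested in a type, 0 passed between knockout and control libraries with edgeR, and 0 to 2 genes of a list had an unadjusted p under 0.05 in a type. For example, 15 of the 20 HSF1-response genes were tested in NK-like and 9 in neutrophil-like cells. Medians of the HSF1-response list were 0.01, 0.11 and 0.07 on the log2 scale in NK-like, T-like and B-like cells, against 0.12, 0.62 and 0.69 for the members. Early response genes, among them those of short-lived transcription factors such as Fos and Jun, had medians of 0.42, 0.23 and 0.29 in these types. In neutrophil-like and hepatocyte-like cells the medians of that list were -0.77 and -0.48, with 1 and 0 of 12 estimates above 0. Atf3 in T-like cells had a log2 difference of 0.94 (SE 0.24; unadjusted p = 0.0021; adjusted p = 0.926). Between types 17 of 17 tested HSF1-response genes, 13 of 14 chaperones of the endoplasmic reticulum, 8 of 8 TRiC subunits, 7 of 7 mitochondrial chaperones and 12 of 12 early response genes passed, beside 94.7% of all genes tested.

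The early response list did not follow the members in order of libraries everywhere. In monocyte-like cells knockout 1 was highest for both, with 12894 CPM of early response genes. In neutrophil-like cells control 2, the library lowest in most member and type pairs, was highest for early response genes, at 37333 CPM, and knockout 1 was lowest, at 14147 CPM, while knockout 1 was the highest for the members, at 5276 CPM. The lists thus ran apart in that type.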

How the data were processed

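Single-cell mRNA was read from tumour-bearing liver in 6 libraries, 3 knockout and 3 control, grouped by GEO's labels. The authors deposited raw UMI counts per gene and barcode, made, per the file headers, with Cell Ranger 7.0.1 (numbers 1 and 2) or 9.0.1 (number 3); the submitters' processing notes name the genome build GRCm39. Matrices of the libraries numbered 1 and 2 list called cells and those numbered 3 all barcodes, so filters differ between them.

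Kept barcodes had 500 or more UMIs, 300 or more genes and a mitochondrial share up to 20%, and in the libraries numbered 3 also had to differ from barcodes with at most 100 UMIs (10000 simulations, false discovery rate 0.001). No doublet caller was run: cells with markers of more than 1 of 15 classes were set apart as mixed, and hashtag multiplets were removed in an alternative. A class needed UMIs of 2 markers, and hepatocyte-like cells 5 markers and 0.2% of UMIs. Hashtag counts, which stayed out of library sizes, assigned cells of the pooled libraries to mice. UMIs were summed per library and type with at least 10 cells and tested with edgeR 4.0.16 (R 4.3.3; quasi-likelihood, TMM, filterByExpr, two-sided, Benjamini-Hochberg over all genes tested, threshold 0.05), without a block; an SE is the absolute log2 difference divided by the square root of F, and 95% intervals take a normal distribution. T-like and B-like cells were added over 5 libraries after the data were seen. DESeq2 1.42.0 was an alternative, as were the replicate block, other size factors, no low-count filter, stricter cell filters and markers, Leiden clusters (leidenalg 0.10.2) and each library left out. Both cell calling and fits were tested on simulated data. Depth is 887170 to 93016265 UMIs per library, and the limit behind a 0 is 3 UMIs.

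Libraries with the same number deviated together in the 5 types found in all 6 libraries. There r between deviations was 0.20 to 0.60 over the 15 pairs, above 0.1 in each. The numbers were therefore taken as pairs in these types, with the replicate block as an alternative to the main fits without a block. What libraries of the same number share was not tested. The genes named were the 10 members, the 5 most like them, and genes of 5 further lists with the smallest p. Members and lists were chosen with earlier results of these data known. Python 3.11.15, numpy 2.4.6 and scipy 1.17.1 were used.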

Additional observations from a re-analysis of the deposited data

Results flagged for a closer look

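Barcodes with at most 100 UMIs, which lie outside the comparisons and hold RNA free of called cells, carried the chaperone genes in the pooled libraries, the only libraries whose matrices list such barcodes. For 6 members the level in knockout 3 was above that in control 3. Hspe1 was at 1418 CPM in knockout 3 and 1007 CPM in control 3, and Hspd1 at 1068 CPM in knockout 3 and 653 CPM in control 3. Hsp90aa1 was at 768 CPM in knockout 3 and 573 CPM in control 3, and Dnaja1 at 254 CPM in knockout 3 and 239 CPM in control 3. Hsph1 was at 139.8 CPM in knockout 3 and 127 CPM in control 3, and Hspb1 at 52.6 CPM in knockout 3 and 45.2 CPM in control 3. The other 4 members ran the other way. Hspa1a was at 378 CPM in knockout 3 and 509 CPM in control 3, and Hspa1b at 366 CPM in knockout 3 and 503 CPM in control 3. Dnajb1 was at 169.9 CPM in knockout 3 and 196 CPM in control 3, and Hspa8 at 1147 CPM in knockout 3 and 1163.5 CPM in control 3. These Hspa1a levels lie above the 21.9 CPM of hepatocyte-like cells of knockout 3 and the 58.4 CPM of those of control 3, and below the 2310 CPM and 1842 CPM of the monocyte-like cells of the same libraries. With 1 library a group the differences were not tested.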

How the results depend on the processing

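No member passed between knockout and control libraries under any alternative in NK-like, T-like, monocyte-like, neutrophil-like, endothelial-like or hepatocyte-like cells or over all cells. In B-like cells 3 passed with the replicate block, and leaving out 1 library at a time gave 0 to 3. The block changed no other call of a member. Leaving out 1 library at a time moved the Hspa1a difference, on the log2 scale, between -0.17 and 1.10 in monocyte-like cells, between -1.15 and 1.20 in neutrophil-like cells and between -0.27 and 1.15 over all cells; each lowest value was without knockout 1, and monocyte-like cells without control 2 gave -0.01. With Leiden clusters it was -0.48 in endothelial-like and 0.42 in hepatocyte-like cells, and control 2 was lowest in 16 of 50 pairs; the cause was not tested. Over all cells the deviations of pair 1 had r = -0.11, so numbers were not taken to pair there.

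Whole-table counts moved more than the members. Without the low-count filter they were 32 in NK-like, 94 in T-like, 16 in B-like, 74 in monocyte-like, 11 in neutrophil-like and 85 in endothelial-like cells. The block gave 5, 35, 48, 17 and 7 in NK-like, T-like, B-like, monocyte-like and hepatocyte-like cells. DESeq2 gave 2 in NK-like cells and 12 over all cells, and a mitochondrial limit of 10% gave 3 in NK-like and 12 in B-like cells. A minimum of 1000 UMIs gave 6 in B-like cells, mice as units 2 in NK-like and 4 in B-like cells, and stricter markers 1 in T-like and 3 in B-like cells. Leaving out 1 library gave 0 to 53 genes in T-like and 0 to 117 in B-like cells. Between types, 8 to 10 members passed. Stricter markers or filters left monocyte-like, endothelial-like or hepatocyte-like cells with 4 or 5 libraries, and few cells in both libraries numbered 2 limit every type.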
